A study of Mus musculus with 45 samples.

Results

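The genes examined were 6 of the 24333 genes in a table of chromatin accessibility from red cell precursors, namely Spi1, Cebpa, Cebpb, Cebpd, Cebpe and Gfi1. They were listed by name because each encodes a transcription factor of the myeloid lineage. The rule itself uses no measured value, but the list was drawn up with earlier results of these data known. The series held 45 samples, of which 6 were analysed here. These were single-nucleus ATAC libraries from Ter119+ erythroblasts, prepared with the multiome kit of 10x Genomics, 3 from Stag2 wild-type (WT) mice and 3 from Stag2 knockout (KO) mice. Mice of both groups were sampled between 6 and 8 weeks after their final dose of pIpC, a synthetic RNA given to induce the deletion, so the WT animals had received it too. Stag2 is a component of cohesin, a protein ring that shapes chromatin loops. The Cre line, the deleted exons and the age and sex of the mice are not given in the sources used here. The labels tie no library to a named animal, so p-values measure the spread between these libraries.

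Spi1 encodes PU.1, an ETS factor of myeloid and lymphoid cells whose activity in red cell precursors is opposed by Gata1. The C/EBP genes encode leucine zipper factors that share a DNA motif and act at successive steps of granulocyte and monocyte development, and Gfi1 encodes a repressor active in stem cells and neutrophil precursors. Late erythroid differentiation normally proceeds with Spi1 turned down and with Gata1 and Gfi1b active.

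Each value is a gene score, the ATAC signal summed around a gene, averaged over the nuclei of a library and rescaled so that each library sums to 1000000. It measures accessibility and not expression. A library mean does not by itself separate fewer nuclei with signal from less signal per nucleus, so shares of nuclei above 0 are given for Cebpb and Cebpd. The authors divided the nuclei into the classes Early, Int and Late and into numbered clusters, and how they did so is not given in the sources used here. WT libraries held 5819 to 6990 nuclei and KO libraries 4617 to 4925, with median fragments per nucleus of 7123 to 8056 and 7742 to 8874. The mean doublet score of Int nuclei was 0.40, 1.62 and 0.22 in WT and 1.82, 3.23 and 3.32 in KO. An alternative that left out nuclei above the 90th percentile of each library still gave 0.0090, 0.22 and 0 in WT and 0.40, 1.28 and 0.997 in KO. The part of doublets in the differences below was not tested beyond that. The score around Stag2 itself was 64.2 to 65.9 in WT and 61.0 to 65.1 in KO and did not pass the test (log2 difference -0.05, limma adjusted p = 0.348), so this measure neither shows nor contradicts a deletion of exons. Between the libraries 725 cell barcodes occurred more than once, carried by 1478 nuclei or 4.34% of all.

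The promoter sequences of Cebpa and Cebpb are shown because both genes had higher scores in KO libraries, as described for each gene in what follows, and their promoters were in the RefSeq table. Both lines give the 250 bases before the RefSeq start (GRCm38.p6, plus strand), 5′ to 3′, with CG dinucleotides in capitals.
Cebpa, chr7:35119043-35119292: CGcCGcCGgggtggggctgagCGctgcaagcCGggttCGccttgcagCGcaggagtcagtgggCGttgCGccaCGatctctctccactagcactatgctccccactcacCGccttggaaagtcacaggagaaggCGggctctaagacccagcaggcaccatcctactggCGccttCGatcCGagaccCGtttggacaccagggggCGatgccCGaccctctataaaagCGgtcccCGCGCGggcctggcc
Cebpb, chr2:167688665-167688914: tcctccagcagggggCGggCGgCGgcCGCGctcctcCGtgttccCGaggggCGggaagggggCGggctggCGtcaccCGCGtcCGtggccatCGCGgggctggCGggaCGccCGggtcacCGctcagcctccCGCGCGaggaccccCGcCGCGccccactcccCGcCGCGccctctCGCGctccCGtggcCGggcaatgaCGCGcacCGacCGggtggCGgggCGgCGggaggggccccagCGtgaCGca
The Cebpa stretch held 22 CG dinucleotides and the Cebpb stretch 41, against a median of 6 over 32851 RefSeq promoter stretches of the same length. Their GC content was 66.4% and 81.6%, against a median of 52.4%. Neither stretch held the GATA motif AGATAA, the C/EBP motif TTGCNNAA or the PU.1 motif GAGGAAGT on either strand. These letters occurred in 9.99%, 9.56% and 2.44% of all stretches, and their absence from these windows says nothing about the factors. Of the 6 genes, 3 were in the RefSeq promoter table, the third being Gfi1.

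**Figure D1:**
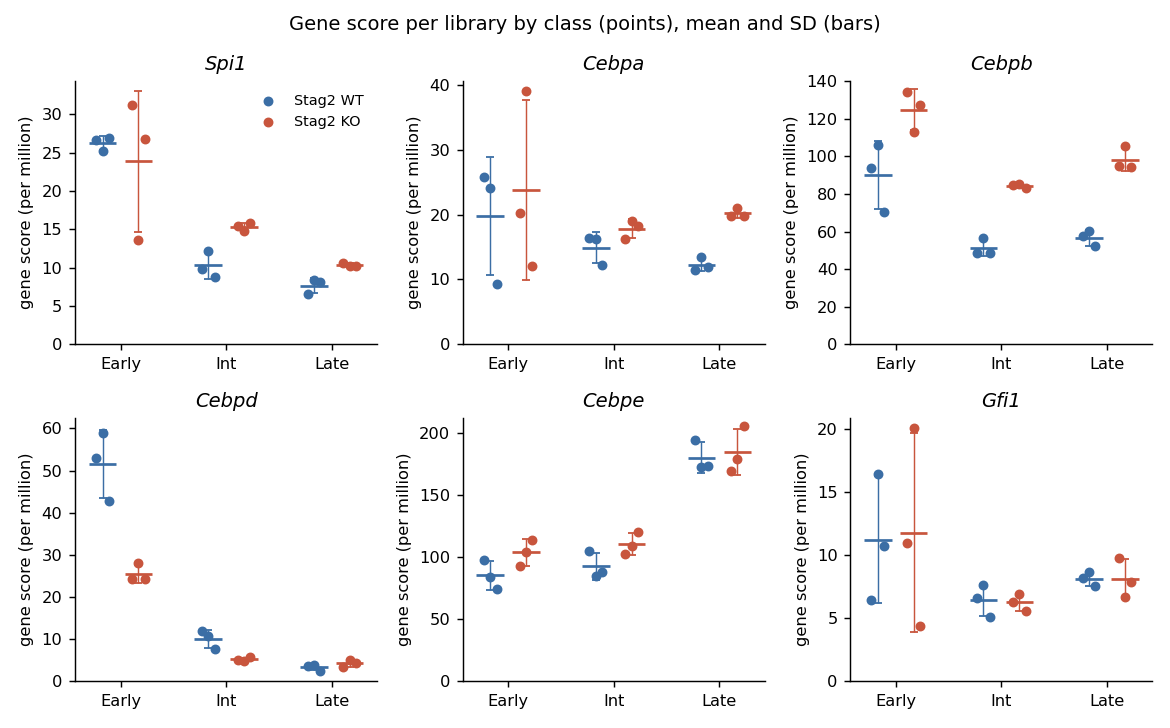
Gene score (rescaled to a library sum of 1000000, linear axis from 0) of the 6 genes in Early, Int and Late nuclei. Points are the 3 WT and 3 KO libraries, horizontal bars their means and vertical bars the SD. Cebpb of the KO libraries lies above that of the WT libraries in every class, from 83.2 to 85.5 against 48.7 to 56.7 in Int, and Cebpd of the KO libraries lies below in Early and Int.

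Over all nuclei, the scores of Cebpb, Spi1 and Cebpa were higher and that of Cebpd was lower in the KO libraries, and those of Cebpe and Gfi1 did not pass the test. In all 4 genes of 6 were past the threshold of 0.05 (limma, Benjamini-Hochberg adjusted over 17682 genes), where 43.3% of all genes tested were. The 3 KO libraries lay apart from the 3 WT libraries in the same 4 genes, where 55.4% of all genes did. The median difference over all genes was 0.10 on the log2 scale. All differences below are between values of log2(score + 1), where low scores give smaller differences than their ratio would. Values of single libraries are listed in the order of replicates 1, 2 and 3.

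Cebpb (chromosome 2, 167688915 to 167690432, plus strand, mm10) encodes a C/EBP factor of monocytes and of the response to infection and cytokines. Its score in Int nuclei was 48.7, 56.7 and 48.7 in WT and 84.8, 85.5 and 83.2 in KO. In Late nuclei it was 57.7, 60.5 and 52.1 in WT and 94.9, 105 and 94.4 in KO. Every KO library lay above every WT library in both classes, and the gap between the groups was wider than the spread within either. The means were 51.4 ± 4.59 and 84.5 ± 1.15 in Int and 56.8 ± 4.25 and 98.3 ± 6.24 in Late (SD, n = 3). The log2 difference was 0.71 in Int (SE 0.06, limma adjusted p = 7.28e-10) and 0.78 in Late (SE 0.06, limma adjusted p = 4.42e-07). Of all genes tested, 98.4% had a smaller or more negative difference than Cebpb in Int and 96.7% in Late.

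The 2 differences of Cebpb were not separable from each other. The KO effect in Late less that in Int was 0.07 (95% interval -0.06 to 0.20, limma adjusted p = 0.559). In all nuclei the score was 50.2 to 60.6 in WT and 89.1 to 96.7 in KO, a ratio of means of 1.67, and the log2 difference was 0.74 (limma adjusted p = 4.36e-08). Among Int nuclei matched on fragments alone, 36.5% to 37.1% of nuclei in KO libraries and 24.4% to 26.5% in WT libraries had a Cebpb score above 0. Without matching these shares were 38.0% to 40.3% and 20.2% to 26.5%. At the median of the matched nuclei, the percentage of fragment ends lying in peaks was still 55.4% to 56.7% in KO and 55.3% to 60.5% in WT. The Cebpb call held in all 20 alternatives over all nuclei and all 19 in Late. Of 20 in Int it missed the threshold in cluster C5 alone (0.54), which holds 628 WT and 1677 KO nuclei of that class.

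Spi1 (chromosome 2, 91096678 to 91115759, plus strand) had a score in Int nuclei of 9.85, 12.2 and 8.82 in WT and of 15.4, 14.8 and 15.8 in KO. In Late nuclei it was 6.55, 8.33 and 8.08 in WT and 10.6, 10.3 and 10.2 in KO. The groups did not overlap in either class, and the KO libraries lay closer together than the WT libraries. The log2 difference was 0.54 in Int (SE 0.14, limma adjusted p = 0.00773) and 0.40 in Late (SE 0.11, limma adjusted p = 0.00664). In Late nuclei the Spi1 call was lost under quantile normalization (0.07), under cyclic loess (0.08) and in nuclei matched on fragments and on the share of fragment ends in peaks (0.17), with adjusted p from 0.00549 to 0.627 over 18 alternatives. In Int it was lost without a filter on low scores, at the same difference, and in cluster C5 alone (0.61). Over all nuclei it was lost under quantile normalization (0.22), with adjusted p from 0.000321 to 0.0518 over 19 alternatives.

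Cebpa (chromosome 7, 35119293 to 35121928, plus strand) encodes the C/EBP factor that commits progenitors to the granulocyte and monocyte fate. Its score in Late nuclei was 11.5, 13.5 and 11.9 in WT and 19.8, 21.1 and 19.8 in KO. In Int nuclei it was 16.4, 16.2 and 12.2 in WT and 16.3, 19.0 and 18.3 in KO. The groups lay apart in Late and overlapped in Int. The log2 difference was 0.68 in Late (SE 0.09, limma adjusted p = 3.28e-05) and 0.25 in Int (SE 0.13, limma adjusted p = 0.193, 95% interval -0.02 to 0.53). The Int value ran from 0.03 to 0.68 over 19 alternatives and was 0.12 without WT replicate 3, with no call in any. The difference between those effects, 0.43 (95% interval 0.14 to 0.72), did not pass the test either (limma adjusted p = 0.0670). It passed without WT replicate 3 (0.54) and with the replicate number as a block, at the same difference (limma adjusted p = 0.0352).

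The Cebpa call in Late nuclei was lost in nuclei matched on fragments and peak share (0.37). The adjusted p ranged from 3.10e-05 to 0.116 over 18 alternatives. Over all nuclei it was lost there (0.16) and under quantile normalization (0.21). The share of fragment ends in peaks differed between the genotypes, at 64.1% to 66.4% in WT and 60.3% to 61.8% in KO libraries for the median Late nucleus. For the median Int nucleus it was 55.3% to 61.9% in WT and 55.1% to 56.2% in KO. The matched set held 783 Late nuclei per library of 2176 to 4527, so it was also smaller. Under this matching Cebpb differed by 0.86 in Late and 0.64 in Int and remained past the threshold in both.

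Cebpd (chromosome 16, 15887286 to 15889545, plus strand) encodes a C/EBP factor induced by inflammatory cytokines, and was the member with a lower score in KO. Its score in Int nuclei was 11.8, 10.6 and 7.66 in WT and 4.94, 4.76 and 5.6 in KO. Every KO library lay below every WT library. The means were 10.0 ± 2.12 and 5.10 ± 0.440 (SD, n = 3), and the log2 difference was -0.84 (SE 0.16, limma adjusted p = 0.000402). Of all genes tested in Int nuclei, 0.0462% had a lower difference than Cebpd. Among Int nuclei matched on fragments alone, 6.08% to 7.52% in WT and 4.15% to 5.03% in KO had a score above 0. Without matching these shares were 4.63% to 7.87% and 4.43% to 4.96% and overlapped. The call held in 18 of 19 alternatives, matching on fragments and peak share included (-0.997), and missed the threshold in cluster C5 alone, at a larger difference (-1.55).

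In Late nuclei Cebpd was close to the bottom of the scale in both genotypes. Its score was 3.61, 3.68 and 2.38 in WT and 3.35, 4.91 and 4.36 in KO, the groups overlapped, and the mean fell under the minimum of 5 needed for a test. Over all nuclei it was 7.01, 8.95 and 5.52 in WT and 5.46, 4.97 and 5.03 in KO, a log2 difference of -0.39 (SE 0.13, limma adjusted p = 0.0282). The lowest WT library, at 5.52, lay just above the highest KO library, at 5.46. That call was lost in 7 of 19 alternatives, among them each of 4 that left out 1 library: WT replicate 1 (-0.39), WT replicate 2 (-0.23), KO replicate 2 (-0.36) and KO replicate 3 (-0.37). The difference was larger under quantile normalization and cyclic loess (-0.67 in both) and in nuclei matched on fragments and peak share (-0.91). Its adjusted p ranged from 0.000169 to 0.109.

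Cebpe (chromosome 14, 54710363 to 54712174, minus strand) encodes the C/EBP factor of late neutrophil maturation and secondary granules. Its score in Int nuclei was 105, 84.9 and 87.7 in WT and 102, 109 and 120 in KO. The groups overlapped, since WT replicate 1 lay above KO replicate 1. The log2 difference of 0.25 passed the test (SE 0.06, limma adjusted p = 0.00560). It missed the threshold in 5 of 20 alternatives, which were no filter, no variance trend, median centring (0.08), cluster C5 alone (0.29) and leaving out WT replicate 3 (0.22), with adjusted p from 1.33e-05 to 0.602. In Late nuclei the score was 194, 173 and 173 in WT and 169, 179 and 206 in KO, with no call (0.04, 95% interval -0.10 to 0.17, limma adjusted p = 0.659). Over all nuclei the difference was 0.09 (limma adjusted p = 0.381). It passed without WT replicate 1 (0.21) and in nuclei matched on fragments and peak share (0.23), was negative under median centring (-0.058), and ran from 0.0091 to 0.21 when 1 library was left out.

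Gfi1 (chromosome 5, 107716655 to 107726247, minus strand) differed least. Its score in Int nuclei was 6.61, 7.61 and 5.07 in WT and 6.24, 6.90 and 5.58 in KO, and in Late nuclei 8.16, 8.62 and 7.50 in WT and 9.74, 6.65 and 7.84 in KO. The groups overlapped in both classes. The log2 difference was -0.03 in Int (95% interval -0.35 to 0.30, limma adjusted p = 0.921) and -0.02 in Late (95% interval -0.28 to 0.25, limma adjusted p = 0.925). The Int interval leaves room for a change of the size seen for Cebpe in Int, in either direction. Under quantile normalization and cyclic loess Gfi1 passed the test as lower in KO over all nuclei (-0.30 and -0.30) and in Late nuclei (-0.36 and -0.35).

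**Figure D2:**
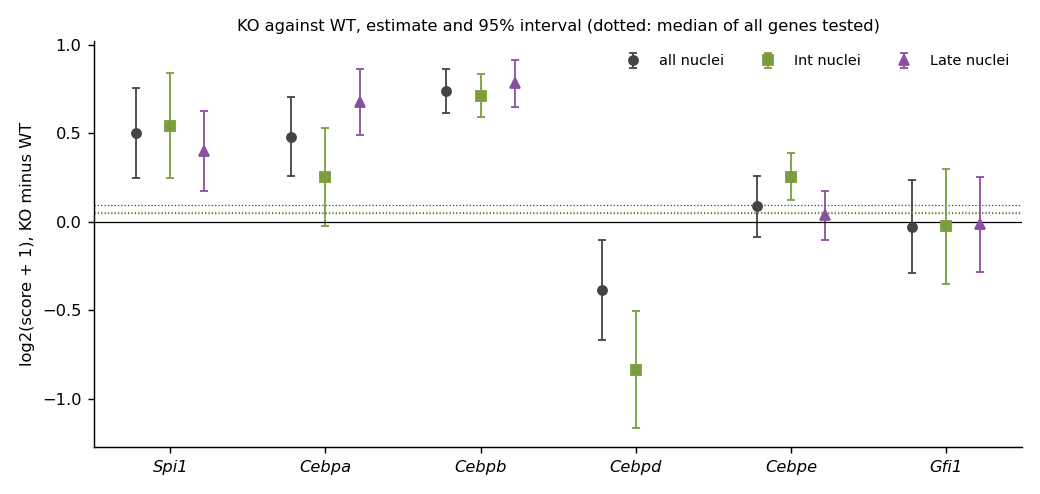
Difference between KO and WT in log2(score + 1) for each gene over all, Int and Late nuclei (vertical axis), with 95% intervals from limma, and dotted lines at the median of all genes tested. Cebpb lies at 0.71 to 0.78 in the 3 sets, Cebpd at -0.84 in Int nuclei, and the intervals of Gfi1 include 0. Cebpd has no point in Late nuclei because it was not tested there.

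Within the classes, 4 of the 6 members were past the threshold in Int nuclei, against 19.8% of all genes tested, and 3 of the 5 tested in Late nuclei, against 51.4%. The groups lay apart in 3 of 6 members in Int, where 37.3% of all genes did, and in 3 of 5 in Late, where 59.5% did. The Late share is thus near that of the whole table. How many genes rose or fell depended on the scaling. Over all nuclei 5144 genes were higher and 2517 lower, and under quantile normalization 2549 and 2890. In Int nuclei the split was 2476 and 1382, and 2085 and 2031 under quantile normalization. In Late nuclei it was 5220 and 2941, and 2794 and 3215. The split in Late also depended on the score level. With a minimum mean of 20 in place of 5, 1870 of 9890 genes were higher and 2690 lower there, at a median of -0.04. The 32.9% of genes tested that were higher in Late thus pools all levels. The share among genes scoring as low as Spi1 or Cebpa was not computed. Median centring moved the median of all genes by -0.15 over all nuclei and by -0.18 in Int nuclei. With that centring Cebpb differed by 0.59 over all nuclei and 0.54 in Int, Spi1 by 0.35 and 0.37, and Cebpd by -0.53 and -1.01, and each remained past the threshold.

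In Int and Late, the genotypes filled different clusters, which touches the differences above. Early nuclei were in C7 for 95.5% of WT and 99.1% of KO. Of the Int nuclei in KO, 43.5% were in cluster C10, 29.6% in C8 and 24.6% in C5. Of those in WT, 41.0% were in C11, 30.0% in C6, 20.7% in C9 and 7.14% in C5. Late nuclei were in C3 for 95.5% of WT and in C2 for 97.3% of KO. The clusters were made by the authors from these nuclei, so levels by cluster are given without a test.

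**Figure D3:**
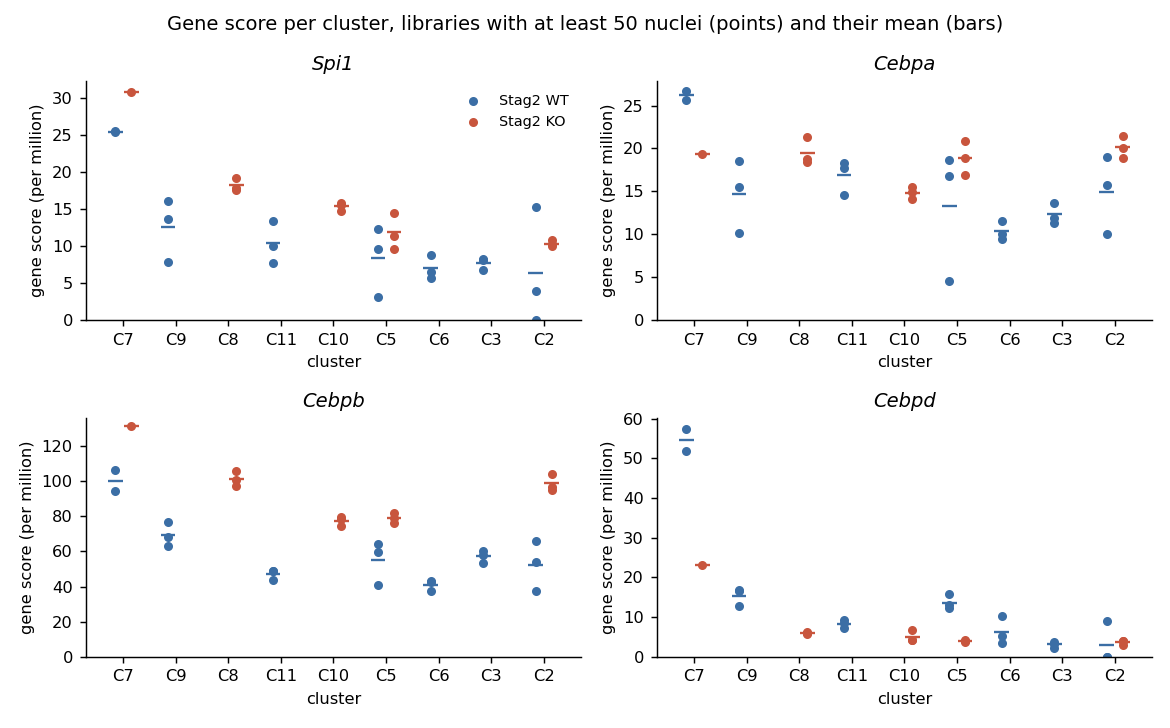
Gene score (rescaled to a library sum of 1000000, linear axis from 0) of Spi1, Cebpa, Cebpb and Cebpd in the authors' clusters, left to right from the Early cluster C7 to the Late clusters C3 and C2. Points are libraries with at least 50 nuclei of that cluster and bars their mean. All KO points of Cebpb lie above 70, and all WT points outside C7 and C9 lie below 70.

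Cebpb was highest in the 1 KO library with enough nuclei of C7, the cluster of the Early nuclei, at 131. C8 of KO at 101 ± 4.30 (SD, n = 3), C7 of WT at 94.6 and 106 in its 2 libraries, and C2 of KO at 98.7 ± 4.94 followed and did not differ beyond their spread. C5 and C10 of KO, at 78.9 ± 2.72 and 77.3 ± 2.76, also overlapped. Next came C9 of WT at 69.3 ± 6.79, C3 of WT at 57.2 ± 3.63, C5 of WT at 55.1 ± 12.3 and C2 of WT at 52.4 ± 14.2, the last 3 within their spread. The lowest were C11 and C6 of WT, at 47.0 ± 2.77 and 41.1 ± 3.10. In C5, an Int cluster with nuclei of both genotypes, the libraries gave 59.9, 64.2 and 41.1 in WT and 78.7, 76.3 and 81.7 in KO, without overlap.

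Cebpd followed another order. It was 52.0 and 57.3 in the 2 WT libraries of C7 and 23.1 in the 1 KO library, then 15.4 ± 2.37 in C9, 13.7 ± 1.85 in C5 and 8.38 ± 1.04 in C11 of WT (SD, n = 3). C9 and C5 of WT did not differ beyond their spread. The means of all clusters of KO other than C7 lay between 3.67 and 5.95, below C9, C5 and C11 of WT. C6 of WT, at 6.34 ± 3.54, overlapped with them. C3 of WT, which holds most Late nuclei of WT, had a mean of 3.10 ± 0.712, lower than all of these KO means. Its libraries overlapped with those of C2 of KO, at 3.67 ± 0.667, so the lower level in KO was not seen between the Late clusters. In C5 the libraries gave 15.7, 12.97 and 12.2 in WT and 4.17, 3.98 and 3.71 in KO, so the groups lay apart there too. In C2 of WT, with 58 to 68 nuclei per library, 2 of the 3 libraries were listed at 0.

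Spi1 was 25.6 and 25.4 in the WT libraries of C7 and 30.8 in the KO library. It was 18.2 ± 0.937 in C8 and 15.4 ± 0.585 in C10 of KO, 12.6 ± 4.27 in C9 and 10.4 ± 2.83 in C11 of WT, and 10.3 ± 0.400 in C2 of KO (SD, n = 3). The libraries of C9 of WT overlapped with those of C10 of KO and of C11 of WT, and C10 and C11 lay apart. In C5 the groups overlapped, at 3.11, 9.59 and 12.4 in WT and 9.68, 11.4 and 14.5 in KO. Cebpa was 26.7 and 25.6 in C7 of WT and 19.3 in C7 of KO, and its means in the other clusters lay between 10.3 and 20.1, with C6 and C3 of WT the lowest. Cebpe was highest in the Late clusters, at 252 ± 52.7 in C2 of WT, 185 ± 17.3 in C2 of KO and 179 ± 13.4 in C3 of WT, and between 86.9 and 115 in all others. C2 of WT held 58 to 68 nuclei per library, at medians of 1919.5 to 2258.5 fragments, against 6091.5 to 6594 in C2 of KO. Gfi1 had means of 1.26 to 11.3, with C7 highest and C2 of WT lowest.

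Early nuclei were few, 357 in WT and 351 in KO, and held 38126 to 53468 fragments at the median, against 10121 to 14998 in Int nuclei. Only WT replicates 1 and 2 and KO replicate 1 had at least 50 of them. In these 3 libraries 5 of the 6 members were higher in Early than in Int nuclei, where 47.5% of all genes tested were higher and 74.1% were past the threshold in either direction. Cebpd was higher by 2.08 and 2.37 in the WT libraries and 2.09 in the KO library on the log2 scale (mean 2.18, SE 0.10, limma adjusted p = 2.32e-07). Spi1 was higher by 1.10 (limma adjusted p = 1.20e-05), Cebpb by 0.83 (2.26e-06, limma), Cebpa by 0.49 (0.00169, limma) and Gfi1 by 0.57 (0.0201, limma). Gfi1 was not higher in all 3 libraries (-0.03, 1.02 and 0.72), and its call was lost without WT replicate 2 (0.34) and, at the same difference, with the variance modelled on the mean difference. The Cebpa call was lost once libraries with at least 15 Early nuclei were admitted (0.26). Cebpe did not pass the test (-0.09, limma adjusted p = 0.130).

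The genotypes also lay apart in Early nuclei for 2 of the 6 members, where 20.4% of all genes with a mean of at least 5 did, as values with no test. Cebpb was 93.9, 106 and 70.4 in WT and 134, 113 and 127 in KO. Cebpd was 53.0, 58.9 and 42.9 in WT and 24.3, 27.9 and 24.2 in KO. Each KO library lay on the same side of the WT libraries as in Int nuclei. WT replicate 3, KO replicate 2 and KO replicate 3 rest on 20, 25 and 16 Early nuclei. Spi1, Cebpa, Cebpe and Gfi1 overlapped between the genotypes there.

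The step from Int to Late was compared within each library. Whether the classes were set from these same accessibility values is not given in the sources used here. The p-values between classes, those of Early against Int included, are thus no independent support. Between Int and Late 5 of 6 members were past the threshold, where 82.5% of all genes tested were. Cebpe rose in 6 of 6 libraries, by 0.88, 1.01 and 0.97 in WT and by 0.73, 0.72 and 0.77 in KO (mean 0.85, SE 0.02, limma adjusted p = 3.29e-18). Every KO library rose less than every WT library. The call held in all 13 alternatives, with differences between 0.73 and 0.87.

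Cebpd fell by 1.47, 1.31 and 1.36 in WT, and its differences in KO were -0.45, 0.04 and -0.30. The groups did not overlap, and the KO libraries started from the lower Int level given above. Cebpd reached the minimum score of 5, which is a mean over both classes and all libraries, only through the Int nuclei of WT, so its fall says little beyond the Int level of WT. The mean was -0.81 (SE 0.09, limma adjusted p = 2.84e-08), and -0.08 under quantile normalization, where the call was lost. Spi1 fell in 6 of 6 libraries by 0.11 to 0.59 (mean -0.45, limma adjusted p = 1.96e-05), but the difference was 0.00 under quantile normalization and -0.16 in nuclei matched on fragments, without a call in either.

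Cebpb rose by 0.09 to 0.30 in 6 of 6 libraries (mean 0.18, limma adjusted p = 1.52e-05), and missed the threshold in matched nuclei (0.15). Gfi1 rose by 0.31 (limma adjusted p = 0.00402), in 5 of 6 libraries, and by 0.93 under quantile normalization. Cebpa had differences of -0.48, -0.25 and -0.03 in WT and 0.26, 0.14 and 0.11 in KO. It was lower in Late in every WT library and higher in every KO library, and the mean of -0.04 did not pass the test (limma adjusted p = 0.593). That mean was 0.32 and past the threshold under quantile normalization. It was also positive in nuclei matched on fragments, and ran from -0.097 to 0.017 when 1 library was left out. The direction of the Cebpa step thus depended on the scaling and on the nuclei used. The median over all genes was -0.15, and 0.03 under quantile normalization.

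**Figure D4:**
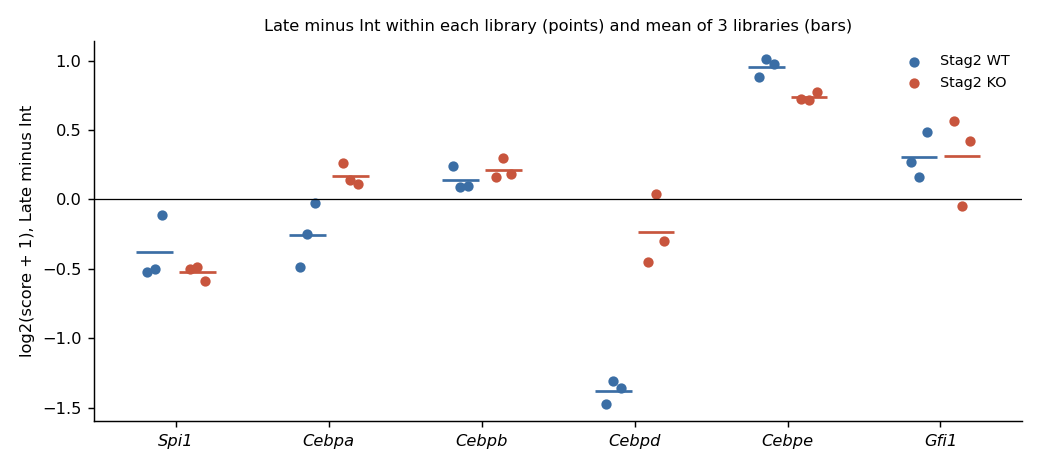
Late minus Int difference in log2(score + 1) within each library (vertical axis) for the 6 genes, with points for libraries and bars for the mean of 3 libraries. WT libraries of Cebpd lie between -1.47 and -1.31 and KO libraries between -0.45 and 0.04, and Cebpe lies above 0.7 in all 6 libraries.

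Whether the KO effect differed between the classes was tested on the same within-library differences. Of the 6 members 2 were past the threshold, Cebpd and Cebpe, where 7.49% of all genes were. For Cebpd the value combines its Int difference of -0.84 with a Late difference of the other sign, between scores below the minimum in both genotypes. Cebpd entered this test through the Int nuclei of WT. The value was 1.14 (95% interval 0.76 to 1.52, limma adjusted p = 0.000600), and nothing about Late nuclei is read from it. It was lost without a filter, at the same difference, and in nuclei matched on fragments (1.31), with adjusted p from 2.19e-05 to 0.134 over 12 alternatives. The KO effect of Cebpe was lower in Late by 0.22 (limma adjusted p = 0.00964), written as -0.22, and was lost in 4 of 13 alternatives, 1 of which left out KO replicate 2 (-0.21). The number of genes past the threshold in this test was 1329, and 28 when the variance was modelled on the mean difference in place of the mean level.

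Scores are summed around each gene, and whether neighbours draw on the same fragments as a member was not tested, so their values are given beside those of the members. Within 100 kb of Cebpb 3 genes were tested. A530013C23Rik, which starts 1844 bases beyond the Cebpb start, differed by 0.63 in Int and 0.68 in Late (limma adjusted p = 6.11e-08 and 5.69e-07). Tmem189, which overlaps Cebpb and starts 907 bases from it on the other strand, differed by 0.13 and 0.05 and did not pass the test (limma adjusted p = 0.0632 and 0.304). Ube2v1 did not pass it either, at -0.08 in both classes. The difference at Cebpb was thus accompanied by one at the nearest gene downstream and by no call at Tmem189. In Int Tmem189 passed under 5 alternatives, quantile normalization (0.18) and leaving out WT replicate 3 (0.16) among them, and was negative under median centring (-0.05).

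Around Spi1 6 genes were tested, of which 4 were higher in Int, and 4 higher and 1 lower in Late. Of these Mybpc3, higher in Late only, scored 5.46 in WT and 7.45 in KO over all nuclei. That is near the minimum of 5, and its Late call is not read as support. Of all genes tested, 12.7% were higher in Int, and 32.9% were higher and 18.5% lower in Late. Nr1h3, a nuclear receptor gene of sterol metabolism, differed by 0.32 in Int and 0.61 in Late, and Madd by 0.33 and 0.60. Both differences in Late exceeded that of Spi1. Rapsn differed by 0.67 in Int and 0.25 in Late. Slc39a13 differed by 0.19 in Int and 0.11 in Late and passed in Int alone (limma adjusted p = 0.0138). Psmc3 differed by 0.01 in Int and was the gene lower in Late (-0.20, limma adjusted p = 0.00343). Around Cebpa 3 genes were tested. Lrp3 differed by 0.54 in Int and 0.79 in Late, Slc7a10 by 0.20 and 0.72, and Cebpg by 0.02 and 0.25, of which Lrp3 alone passed in Int and all 3 in Late. Slc7a10 scored 5.49 in WT and 7.93 in KO over all nuclei and was lower in Late than in Int (-0.34). It was thus near the minimum of 5, and its Late call is not read as support. The Lrp3 call in Int was lost without KO replicate 1 (0.51). Mzt2 was the only gene tested near Cebpd and did not pass the test, at -0.04 in Int and 0.10 in Late. Of 9 genes near Cebpe 0 passed in Int (limma) and 1 in Late, Psmb11 (0.25), and 7 of the 9 rose from Int to Late, where 29.6% of all genes did. With a minimum mean of 20 in place of 5, 4832 of 10330 genes rose. Some of the 9 overlap one another, so they are not separate observations. Of 2 near Gfi1 0 passed in either class (limma).

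**Figure D5:**
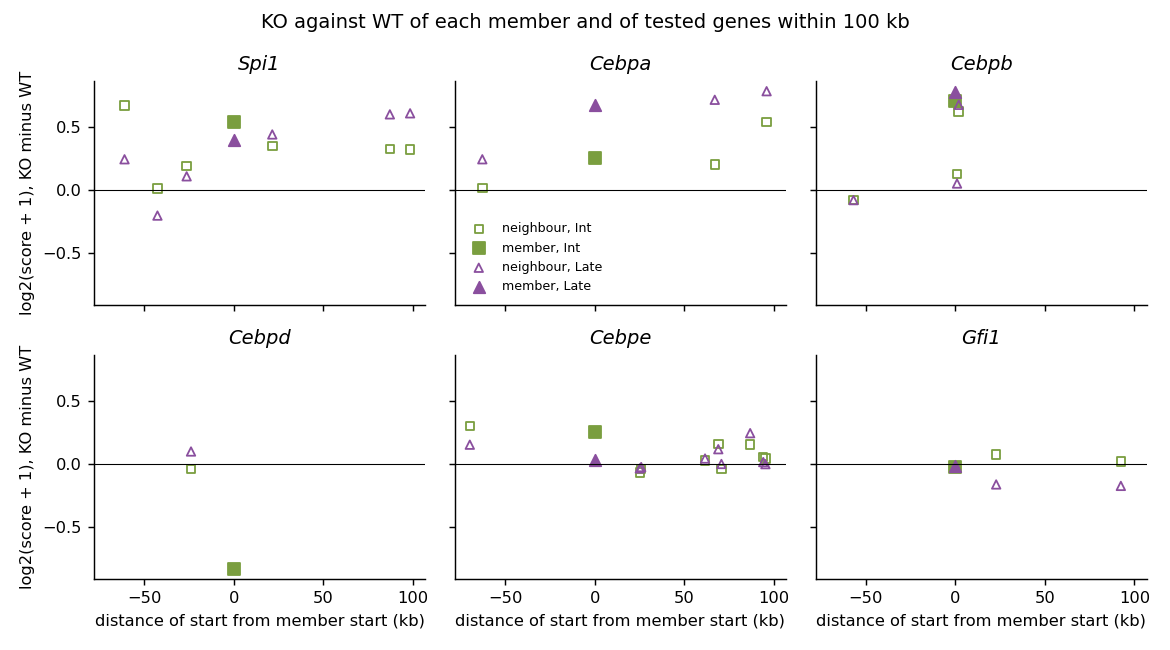
Difference between KO and WT in log2(score + 1) (vertical axis) of each member (filled) and of the genes tested within 100 kb (open), by distance of the start from that of the member in kb, in Int (squares) and Late nuclei (triangles). Next to Cebpb the gene 1844 bases away lies near it at 0.63 and 0.68, and Cebpd in Int nuclei, at -0.84, is the lowest point.

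Genes acting with these factors were taken from lists. Of the C/EBP and ETS relatives Cebpg, Ddit3, Spib and Spic, 3 were tested. In Int nuclei 0 of them passed the test (limma), where 12.7% of all genes were higher. In Late, where 32.9% were, 2 of 3 were higher, Ddit3 by 0.27 (limma adjusted p = 0.000340) and Cebpg by 0.25 (limma adjusted p = 0.00208). Both encode basic leucine zipper proteins that pair with C/EBP factors. The list's median was 0.01 in Int and 0.25 in Late, beside 0.06 and 0.05 over all genes.

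Of 14 partner and opposing factors, 3 were higher and 3 lower in Int, and of the 12 tested in Late 5 were higher and 5 lower. Of all genes tested 12.7% were higher and 7.1% lower in Int, and 32.9% and 18.5% in Late. Gata2, a progenitor Gata factor, was 20.9 ± 3.44 in WT and 50.2 ± 3.37 in KO in Int nuclei (SD, n = 3), a difference of 1.23 (limma adjusted p = 2.82e-10). Egr2, a factor of macrophage development, rose by 0.63 in Int. The Late means were 3.73 ± 0.182 for WT and 10.01 ± 1.09 for KO (SD, n = 3), with a difference of 1.22, and the gene reached the minimum of 5 there only through the KO libraries. Egr1, an immediate early factor, rose by 0.39 in Int and 0.64 in Late (limma adjusted p = 7.12e-06 and 8.58e-08), and its Int call was lost under median centring (0.21) and in C5 alone (0.16). Gata1, the erythroid Gata factor, was 89.3 ± 1.25 in WT and 79.1 ± 4.25 in KO in Int, and fell by 0.17 in Int and 0.18 in Late on the log2 scale (limma adjusted p = 0.0152 and 0.0103). Its Int call was lost in 7 of 20 alternatives, among them without WT replicate 1 (-0.16) and without KO replicate 1 (-0.13), and its Late call in nuclei matched on fragments and peak share (-0.036) and under cyclic loess (-0.12). Tal1, an erythroid and stem cell factor, fell by 0.22 and 0.24 on the log2 scale, and Gfi1b, the erythroid counterpart of Gfi1, fell by 0.19 and 0.30. The Gfi1b call in Int was lost in 6 alternatives, 1 of which left out WT replicate 1 (-0.15), and the Tal1 call in Late in 6, among them without WT replicate 2 (-0.20) and without KO replicate 1 (-0.20). The list's median was 0.11 in Int and 0.12 in Late.

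Of 13 myeloid receptors, 8 were tested in Int and 1 was higher, and 7 were tested in Late and 4 were higher. None was lower in either. The shares of all genes that were higher were 12.7% in Int and 32.9% in Late. Most of these receptors scored below 20, and the share among all genes at that level was not computed. Il6ra, the receptor of interleukin 6, was 10.0 ± 1.45 in WT and 20.3 ± 0.809 in KO in Int (SD, n = 3), a difference of 0.95 (limma adjusted p = 8.46e-06), and 0.76 in Late. Csf2rb, the common subunit of the receptors for GM-CSF, interleukin 3 and interleukin 5, was 11.8 ± 0.430 and 31.4 ± 3.21 in Late, a difference of 1.34 (limma adjusted p = 6.96e-08). In Int it was 0.40 and did not pass (limma adjusted p = 0.0588), but passed without WT replicate 2 (0.49) and with the replicate block at the same difference. The summed score of the list was 67.0 to 85.9 in WT and 99.1 to 108 in KO in Int nuclei, and 60.7 to 64.1 and 94.4 to 102 in Late. The list's median was 0.21 in Int and 0.31 in Late.

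Granule genes are read against the 12.7% of all genes that were higher in Int and the 32.9% in Late. Those shares pool genes of all score levels, whereas most of the granule genes tested scored below 20. The share among all genes at that level was not computed, and in Late it was larger by the counts given above. Of 5 primary granule genes, 3 were tested. Elane and Prtn3, which encode neutrophil serine proteases, were higher in Int by 0.41 and 0.52 (limma adjusted p = 0.00840 and 0.00274). In Late Elane alone passed (0.28), and the call was lost without WT replicate 2 (0.25) and without KO replicate 1 (0.23). In Int the Elane call was lost without KO replicate 1 (0.38) and without KO replicate 3 (0.41). Of 10 secondary and tertiary granule genes, 6 were tested in Int, with S100a8 higher (0.42, limma adjusted p = 0.0428). In Late 4 were tested, with S100a9 (0.61) and Mmp9 (0.22) higher. S100a8 in Int (4.78 in WT and 6.73 in KO) and S100a9 in Late (4.35 and 7.15) reached the minimum of 5 only through the KO libraries, so their calls are no support for a change of the list. S100a8 lost its call in 13 alternatives, at differences down to 0.01, among them leaving out WT replicate 1 (0.40), KO replicate 1 (0.46), KO replicate 2 (0.39) or KO replicate 3 (0.41). Mmp9 lost it in 13 too, with a negative value under quantile normalization (-0.07) and cyclic loess (-0.01), and without WT replicate 1, 2 or 3 (0.23, 0.20 and 0.24) or KO replicate 1 or 2 (0.17 and 0.25). Chil3 and Lcn2 were listed at 0 in every library. The medians of these 2 lists were 0.41 and 0.19 in Int and 0.21 and 0.23 in Late.

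Markers of other cells are read against the 12.7% of all genes that were higher in Int and the 32.9% in Late. Those shares pool genes of all score levels. Of 14 erythroid markers measured, 9 were lower in Int and 13 in Late, where 7.1% and 18.5% of all genes were, and their summed score was 2562 to 2789 in WT and 2334 to 2472 in KO in Int nuclei, and 3102 to 3173 and 2663 to 2721 in Late. Of 10 macrophage and monocyte markers 9 were tested in Int and 0 passed (limma), and in Late 1 of 2 tested was lower, Ccr2 (-0.54). Their summed score was 77.7 to 94.0 in WT and 88.2 to 91.9 in KO in Int, and 53.6 to 57.8 and 60.0 to 63.1 in Late. Of 8 stem and progenitor markers 0 passed in Int (limma), with sums of 87.1 to 111 and 108 to 118, and all 5 tested in Late were higher, where 32.9% of all genes were, with sums of 39.8 to 46.5 and 63.3 to 70.6. Of the B cell markers 0 of 5 passed in Int (limma) and 2 of 4 were higher in Late, of the T and NK cell markers 0 of 3 and 0 of 1 passed (limma), and of the mast cell and basophil markers 0 of 2 and 0 of 1 (limma). Of the megakaryocyte markers 1 was higher and 2 lower of 5 in Int, and 2 were higher and 2 lower of 4 in Late. The summed score of the B cell markers was 84.0 to 96.2 in WT and 97.5 to 108 in KO in Int, and 53.0 to 60.9 and 66.6 to 72.4 in Late. That of the T and NK cell markers was 42.1 to 48.5 and 48.8 to 54.9 in Int, and 35.6 to 37.9 and 44.2 to 45.7 in Late. That of the mast cell and basophil markers was 31.5 to 40.01 and 39.0 to 41.3 in Int, and 25.4 to 28.6 and 30.3 to 31.1 in Late. That of the megakaryocyte markers was 289 to 323 and 315 to 341 in Int, and 252 to 296 and 285 to 299 in Late. The sums lay apart and higher in KO for the B cell and the T and NK cell markers in both classes. So did those of the myeloid receptors and of both granule lists. In Late the same held for the macrophage and monocyte, the stem and progenitor, and the mast cell and basophil markers. The erythroid sum lay apart and lower in both classes. The T and NK cell sums in Int lay apart only narrowly, at 48.5 against 48.8. Among single genes tested, 37.3% lay apart in Int and 59.5% in Late, and no such share was computed for sums. The sums include listed genes under the minimum of 5 and were not computed under other scalings or in matched nuclei. The part of the shifts in these sums in the members' differences was not tested.

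The genes whose scores followed each member most closely were sought over the 33 combinations of a library and a cluster with at least 50 nuclei, on other chromosomes than the member. These combinations share libraries and depth, so the correlations of log2 scores are a description. Cebpb was followed by Ptpn18 (Pearson r = 0.94), 9330175E14Rik (0.92) and Tmem40 (0.92). Spi1 was followed by Mgat4a (0.95), Tigd4 (0.94) and Atp2a1 (0.93). Cebpa had no such close companion, its first being Stac2 (0.81), Ppm1e (0.79) and Cmtm4 (0.78). Cebpd was followed by 3010003L21Rik, Tacr2 and Gm20597 (0.91, 0.91 and 0.90), Cebpe by Prkar2b, Mkrn1 and Atad3a (0.93, 0.92 and 0.92), and Gfi1 by Snora30, Clpx and Neil1 (0.93, 0.91 and 0.91). Between members the values ran from -0.62 for Cebpd with Cebpe to 0.63 for Cebpd with Spi1, and Cebpb with Cebpa gave 0.62.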

How the data were processed

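Accessibility was measured by single-nucleus ATAC in 3 WT and 3 KO libraries of Ter119+ erythroblasts. Per the submitters' processing notes, Cell Ranger and the mm10 build were used. The deposited gene scores are a signal that was never negative, normalized by the authors to about the same sum in each nucleus. The headers of the table of nuclei are those of an ArchR project, and the weighting behind the scores is not given in the sources used here. Fragment counts, doublet scores and the share of fragment ends in peaks per nucleus, with the classes and clusters, were deposited by the authors, per the file headers. That table lists each nucleus 2 times, and each was used once. Gene rows carry no names and were named by the order of the deposited table of genes.

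Scores were averaged over the nuclei of each library and set and rescaled to a sum of 1000000. Genes with a mean of at least 5 were tested on log2(score + 1) with limma 3.58.1 in R 4.3.3, with a variance trend and Benjamini-Hochberg adjustment over all genes tested. A threshold of 0.05 was used. Classes were compared by within-library differences, with at least 50 nuclei per library. Cluster levels and correlations were computed in Python 3.11.15. The scripts were tested on simulated data. The genes and gene lists were chosen with earlier results of these data known. Genes were named as members, as list genes past the threshold, as tested neighbours within 100 kb, or as the 3 most alike. Psmb11, Mzt2, Rapsn, Mybpc3, Psmc3, Slc39a13, Ube2v1, Chil3 and Lcn2 were singled out after their values were seen. The closing section gives the alternatives. The matching on peak share and the variance trend on the mean difference were chosen after seeing the data. RNA, CUT&RUN, Hi-C and progenitor libraries were not analysed here.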

Additional observations from a re-analysis of the deposited data

Results flagged for a closer look

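For 9 of the genes named above, the KO effect in Late nuclei differed from that in Int nuclei by the limma test of the difference itself (log2, Late effect minus Int effect, n = 3 libraries per genotype). Each of these calls was lost with no filter and in nuclei matched on fragments. Cebpe differed by -0.22 (limma adjusted p = 0.00964, lost in 4 of 13 alternatives). For Cebpd the value was 1.14 (limma adjusted p = 0.000600, lost in 2 of 12), but it reached the minimum score only through the Int nuclei of WT. The value combines the Int difference with a Late difference between scores below the minimum, and nothing about Late nuclei is read from it. Csf2rb differed by 0.94 (limma adjusted p = 0.000311, lost in 2 of 12) and Ddit3 by 0.30 (limma adjusted p = 0.000600, lost in 3 of 13). Cebpg differed by 0.23 (limma adjusted p = 0.0170) and lost the call in 6 of 13, among them without WT replicate 1 (0.22), KO replicate 2 (0.24) or KO replicate 3 (0.22). Nr1h3, a neighbour of Spi1, differed by 0.29 (limma adjusted p = 0.0205) and lost it in 6 of 13, among them without WT replicate 2 (0.22), KO replicate 1 (0.29) or KO replicate 2 (0.28).

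Egr1 differed by 0.25 (limma adjusted p = 0.0153) and lost the call in 6 of 13, among them without WT replicate 2 (0.16) or KO replicate 2 (0.21). Egr2 differed by 0.59 (limma adjusted p = 0.0467) and lost the call in 10 of 12, and Madd, also near Spi1, by 0.28 (limma adjusted p = 0.0439) and lost it in 11 of 13. For both, leaving out any library other than WT replicate 3 ended the call, with Egr2 at 0.42 to 0.62 and Madd at 0.20 to 0.29. The adjusted p over the alternatives reached 0.134 for Cebpd, 0.203 for Cebpe, 0.200 for Csf2rb, 0.216 for Ddit3, 0.350 for Cebpg, 0.441 for Nr1h3, 0.831 for Egr1, 0.436 for Egr2 and 0.744 for Madd (limma).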

How the results depend on the processing

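Of 518 alternative values for the 6 genes, 448 kept direction and side of the threshold, 35 lost the call, 8 gained one and 27 changed sign. Over all nuclei 7661 genes passed, 4244 with a minimum mean of 20 and 4737 with nuclei matched on fragments and peak share. In Int 3858 passed, 2419 with no filter, 1921 with no variance trend, 171 in cluster C5 alone and 2547 to 4782 when 1 library was left out. In Late 8161 passed, 4560 with the minimum of 20 and 2596 with peak share matched. From Int to Late 14633 passed and 8611 with the minimum of 20. For the difference of KO effects 1329 passed (limma), 0 with no filter (5088 at an unadjusted p under 0.05), 601 with the minimum of 20, 741 under quantile normalization, 29 in matched nuclei, 28 with the variance trend on the mean difference and 375 to 2700 when 1 library was left out. The cause of these changes was not tested.

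Values that changed sign were small for the most part. Under median centring Ddit3 (-0.016), Cebpe (-0.058), Tmem189 (-0.081) and Cebpg (-0.016) did so over all nuclei, Tmem189 (-0.048) and Cebpg (-0.16) in Int, and Cebpe (-0.028) and Tmem189 (-0.013) in Late. Under quantile normalization it was Mmp9 (-0.036) over all nuclei, Ddit3 (0.015) in Int, and Prtn3 (-0.0073) and Mmp9 (-0.068) in Late, and from Int to Late Spi1 (0.0026) and Cebpa (0.32). The Gfi1 difference of KO effects was -0.056 there. Under cyclic loess it was Ddit3 (0.055) in Int and Mmp9 (-0.0098) in Late. In nuclei matched on fragments it was Ddit3 (0.0089) in Int, Cebpa (0.24) from Int to Late and Cebpb (-0.10) in the difference of KO effects. With peak share matched it was Stag2 (0.0041) over all nuclei, and Ddit3 (0.0041), Slc7a10 (-0.065) and Stag2 (0.036) in Int. With as many nuclei at random it was Gfi1 over all, Int and Late nuclei (0.060, 0.069 and 0.054) and Stag2 in Int (0.034). With high doublet scores left out it was Gfi1 (0.0097, 0.0060 and 0.0073). When 1 library was left out, values ran through 0 for Gfi1 over all nuclei (-0.14 to 0.064), in Int (-0.17 to 0.087), in Late (-0.14 to 0.10) and in the difference of KO effects (-0.11 to 0.19). They did so in Int for Ddit3 (-0.058 to 0.0015), Cebpg (-0.018 to 0.068) and Stag2 (-0.036 to 0.016), in Late for Cebpe (-0.043 to 0.096), and from Int to Late for Cebpa (-0.097 to 0.017). In C5 alone it was Mmp9 (-0.11), Gfi1 (0.018) and Stag2 (0.12).

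The replicate numbers showed no clear pairing of the libraries over all nuclei and in Int, and a weak one in Late. The main tests of KO against WT used no pairing. Correlations of same-numbered libraries ran from -0.27 to 0.21 over all nuclei, -0.08 to 0.19 in Int and 0.05 to 0.09 in Late, and 2, 3 and 6 of 6 libraries correlated best with their own number. With the replicate block 7470, 4527 and 7982 genes passed over all, Int and Late nuclei, 14786 from Int to Late and 1844 in the difference of KO effects. Early values of WT replicate 3, KO replicate 2 and KO replicate 3 rest on 16 to 25 nuclei, and genes with scores near 5, such as Cebpd and Gfi1, are near the minimum for a test.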
